A study of Mus musculus with 12 samples.

Results

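The 9 genes described here, Cyp2d9, Cyp7b1, Cyp4a12a, Cyp4a12b, Elovl3, Hsd3b5, Slco1a1, Selenbp2 and Sult2a8, were taken as a set of liver genes known to depend on pulsed growth hormone, and they are 9 of the 53465 genes in the table. They were chosen by name, through their Ensembl identifiers and GENCODE M21 symbols, with earlier results of these data known. Counts of the set set beside shares of all genes are therefore descriptive. RNA-seq read counts per gene, from total RNA, were available for 12 livers of C57BL/6N mice, which the study describes as male. The livers came from young mice of 3 months, middle-aged mice of 12 months and aged mice of 18 months, with 4 livers at each age and each liver from a separate animal. No group carried a transgene or a drug treatment in the labels. The extraction notes mention young and old livers only, the design notes give 3 replicates per age where 4 are listed, and the study also drew on public RNA-seq of 3 ages, so the origin of all 12 libraries is uncertain.

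Growth hormone reaches the male mouse liver in pulses and the female liver almost continuously. Each pulse activates the receptor Ghr, the kinase Jak2 and the transcription factor Stat5b, and this rhythm keeps a group of genes high in male hepatocytes, while continuous hormone favours a female-biased group. The feedback inhibitors Socs2 and Cish and the secreted factor Igf1 are other known targets of the pathway.

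The 12 libraries held between 8124312 and 10527159 gene counts, and every gene of the set had at least 340 raw counts in every library. Values below are normalised read counts, that is, counts divided by a size factor per library that DESeq2 takes from the median gene. All 7 hepatocyte markers examined were detected. More genes were detected in young replicate 3 and middle-aged replicate 1 (22284 and 19982) than in the rest (16361 to 17563), and results without them are given where they differ. Synthetic spike-in RNA split the libraries of each age into replicates 1 and 2 (called set A) and replicates 3 and 4 (called set B). Over the 31 spike-ins with at least 50 counts in every library, log abundances correlated at 0.997 or more within a set and at 0.925 or less between sets. No label names a preparation batch.

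Every statement of higher or lower below is relative to the median gene. Size factors from the spike-ins varied widely within an age, at 1.08, 3.08, 2.14 and 1.43 in young replicates 1 to 4. They were 0.56 to 1.04 in middle-aged and 0.60 to 1.15 in aged livers. When the spike-ins were used for scaling, the median of all genes moved by 1.25 on the log2 scale for aged against young livers and by 1.57 for middle-aged against young ones. In those units the median of the 9 genes was 0.31 and 0.53, so most fold changes of the set turned positive (7 of 9 and 8 of 9), while all 9 genes remained below the median gene in both comparisons. Scaling by total counts moved the median of all genes by 0.12 in both and turned no sign of the set against young livers. In bulk tissue, fewer hepatocytes and less RNA per hepatocyte cannot be told apart.

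Sequence windows are shown first because the set is defined by a shared hormone input. RefSeq promoter windows of the 250 bases before a start site (GRCm38.p6) were matched for 5 of the 9 genes, namely Selenbp2, Hsd3b5, Slco1a1, Sult2a8 and Cyp2d9. Cyp7b1, Cyp4a12a, Cyp4a12b and Elovl3 had no entry. The STAT5 consensus TTCNNNGAA, searched on both strands, was present in 0 of these 5 genes (6 windows, as Sult2a8 has 2) and in 7.02% of all 32851 windows. The HNF6 motif ATCAAT was present in 1 of 5, against 6.72% of all windows. The HNF1-type motif GTTAAT was present in 0 of 5, against 6.43%. The letters TATAA, on either strand and at any position of the window, were present in 4 of 5, against 22.8% of all windows, and that motif was added after the STAT5 search. In Selenbp2 the only match was on the strand opposite to the gene. These are matches of letters near a RefSeq start only, and for 2 genes that start lies far from the GENCODE one, 15282 bases away and outside the gene for Hsd3b5, the gene without TATAA, and 18940 bases inside the gene for Cyp2d9. Windows of 3 genes are printed 5′ to 3′ on the strand of the gene, cut where an annotated exon begins, with TATAA and ATCAAT matches on either strand in capitals. The Selenbp2 window lies at chr3:94693323-94693555 (plus strand), directly before the gene. The Slco1a1 window lies at chr6:141946963-141947212 (minus strand), also directly before the gene. The Sult2a8 window lies at chr7:14438562-14438801 (minus strand), before a RefSeq start that is 8218 bases inside the GENCODE gene. Sult2a8 is the member with the 2 ATCAAT matches, both in this window and none in its other one.
Selenbp2: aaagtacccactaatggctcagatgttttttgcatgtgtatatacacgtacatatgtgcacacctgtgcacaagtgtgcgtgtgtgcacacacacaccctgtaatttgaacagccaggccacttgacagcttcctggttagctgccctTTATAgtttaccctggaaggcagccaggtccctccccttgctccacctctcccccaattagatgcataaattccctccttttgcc
Slco1a1: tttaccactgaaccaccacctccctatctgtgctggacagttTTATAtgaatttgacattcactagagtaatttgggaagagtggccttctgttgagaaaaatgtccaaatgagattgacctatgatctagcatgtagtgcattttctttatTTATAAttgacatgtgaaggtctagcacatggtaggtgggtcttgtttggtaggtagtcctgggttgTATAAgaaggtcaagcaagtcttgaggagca
Sult2a8: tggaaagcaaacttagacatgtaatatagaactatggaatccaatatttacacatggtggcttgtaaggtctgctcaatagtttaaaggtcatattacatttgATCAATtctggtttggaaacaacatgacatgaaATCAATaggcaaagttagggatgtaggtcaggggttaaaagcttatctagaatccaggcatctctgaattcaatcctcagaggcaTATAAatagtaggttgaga

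How mRNA levels of these genes at 18 months compare with those at 3 months was examined first. All 9 genes had lower means in aged livers, and 5 of the 9 passed the test (Cyp4a12b, Cyp4a12a, Elovl3, Cyp7b1 and Slco1a1; DESeq2 Wald test with Benjamini-Hochberg adjustment over all genes). Among all 13527 genes tested, 3.58% were called, 1.71% lower and 1.87% higher. The median log2 fold change was -0.87 over the 9 genes and 0.00 over all genes tested. In 6 of the 9 genes every aged liver lay below every young one, against 3.69% of all genes tested. The number called depended on the test and on single livers. It was 2 with edgeR (Cyp4a12a and Cyp4a12b), 8 with limma-voom, and 7 with the spike-in set as a term of the model, which added Hsd3b5 and Sult2a8. It was 9 without aged replicate 1, 3 without aged replicate 4 or young replicate 1, 3 or 4, and 3 without young replicate 3 and middle-aged replicate 1 together.

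Middle-aged livers were compared with the same young livers, so the 2 comparisons share their reference samples and are not separate evidence. All 9 means were again lower, and 4 of the 9 genes passed the test (Elovl3, Cyp4a12b, Cyp7b1 and Cyp4a12a), against 6.41% of 11333 genes called 2.9% lower and 3.51% higher. The median log2 fold change of the set was -1.11, against 0.01 over all genes tested. Every middle-aged liver lay below every young one in 8 of the 9 genes, Cyp2d9 being the exception, against 7.96% of all genes tested. The count of 4 was the same with edgeR and limma-voom, and it was 8 in a fit without aged replicate 3, whose spread enters the shared estimate, and 8 when only young and middle-aged livers were fitted. Between middle-aged and aged livers 0 of the 9 genes were called by DESeq2, where 1.14% of 10236 genes were, 0.606% lower and 0.537% higher. edgeR and limma-voom also called 0 of the 9. At an unadjusted p under 0.05 DESeq2 gave 1 gene, Elovl3, and the median log2 fold change of the set was -0.03. A likelihood ratio test across the 3 ages called 5 of the 9 genes, the same 5 as for aged against young livers, with 6.96% of 12430 genes called.

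**Figure D1:**
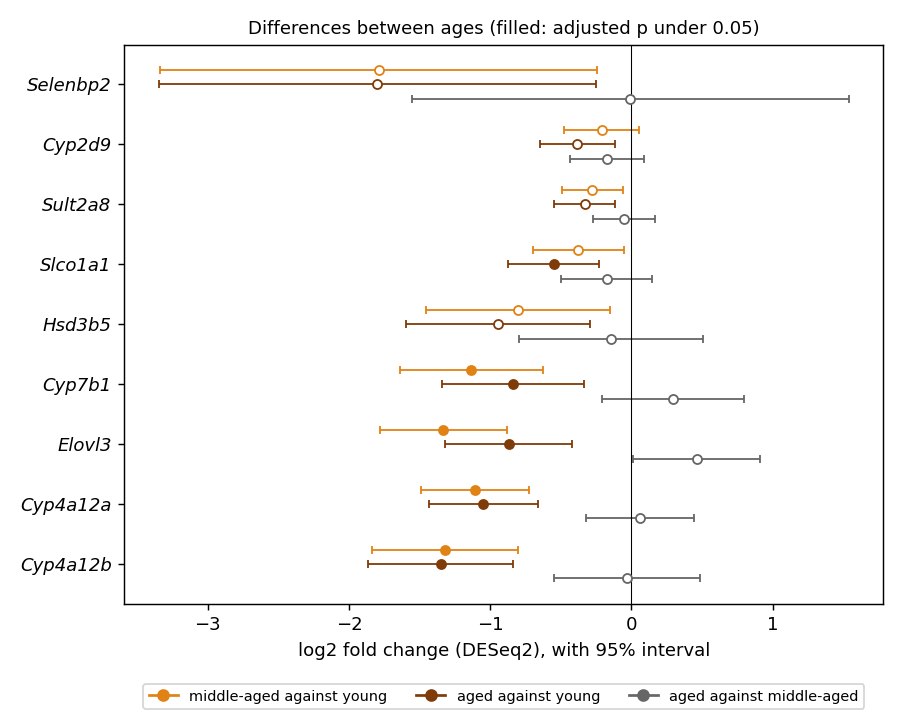
Log2 fold change (horizontal axis) of each of the 9 genes for the 3 comparisons of ages, from DESeq2, with 95% intervals; filled points passed an adjusted p of 0.05. All points against young livers lie left of 0 (relative to the median gene; with spike-in scaling 7 of 9 and 8 of 9 turn positive), and all points for aged against middle-aged livers are open.

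The set was taken next by function, beginning with the enzymes that act on fatty acids. Cyp4a12a and Cyp4a12b encode omega-hydroxylases, and Cyp4a12a is the main male form, which acts on arachidonic acid. Cyp4a12a (ENSMUSG00000066071, chr4:115299046-115332815) had 3530, 2682, 3423 and 3226 normalised counts in young replicates 1 to 4, 1335, 1417, 1928 and 1292 in the middle-aged livers, and 2212, 1634, 1157 and 1222 in the aged livers. All 8 older livers lay below the lowest young liver, and aged replicate 1 came nearest to it. The log2 fold change of Cyp4a12a was -1.05 ± 0.20 (SE, n = 4 and 4; DESeq2 adjusted p = 3.45e-05) for aged and -1.11 ± 0.20 (adjusted p = 5.58e-06) for middle-aged livers against young ones. Cyp4a12b (ENSMUSG00000078597, chr4:115411624-115439034) had 1474, 930, 1286 and 1115 normalised counts in young, 434, 527, 624 and 341 in middle-aged and 723, 537, 313 and 312 in aged livers. Neither older group overlapped the young livers, the 2 older groups overlapped each other, and the aged livers of set B were the lowest of all 12. The log2 fold change of Cyp4a12b was -1.35 ± 0.26 (DESeq2 adjusted p = 7.53e-05) for aged and -1.32 ± 0.26 (adjusted p = 1.10e-04) for middle-aged livers. Both genes kept their calls against young livers when any 1 of the 12 libraries was left out.

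These paralogues are near copies, so reads can be split between them. Their coding sequences have 1524 bases each and differ at 23 positions (98.5% identity), and 48.9% of the stretches of 50 bases in the Cyp4a12a transcript occur unchanged in Cyp4a12b. With both genes summed, the log2 fold change was -1.12 ± 0.21 (DESeq2 adjusted p = 3.23e-05) for aged and -1.16 ± 0.21 (adjusted p = 9.00e-06) for middle-aged livers against young ones. The sum was lower in both older groups.

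Elovl3 encodes an elongase of very long chain fatty acids whose liver mRNA is also known to follow the time of day. Elovl3 (ENSMUSG00000038754, chr19:46131897-46135694) had 3106, 3840, 3051 and 5174 normalised counts in young, 1100, 1682, 1987 and 1259 in middle-aged and 2778, 1455, 2171 and 1906 in aged livers. Both older groups lay below all young livers, and the highest middle-aged liver lay above the lowest 2 aged livers. Elovl3 had the largest called log2 fold change of the set in middle-aged livers, -1.33 ± 0.23 (DESeq2 adjusted p = 2.53e-06), and one of -0.87 ± 0.23 (adjusted p = 0.00879) in aged livers. Aged against middle-aged livers differed by 0.46 ± 0.23 (adjusted p = 0.472). The call for aged livers was lost without young replicate 4, the highest young liver, where the log2 fold change was -0.68.

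As Elovl3 follows time of day, genes of the circadian clock were examined in the same livers. Of 16 clock genes tested, 5 rose (Dbp, Per3, Tef, Nr1d2 and Cry2) and 1 fell (Nfil3, whose sign turned with spike-in scaling) in middle-aged against young livers. In aged against young livers 1 of 17 was called, Cry1, which was higher. Aged against middle-aged livers had the most calls, 9 of 15, with 3 higher (Arntl, Nfil3 and Cry1) and 6 lower (Dbp, Per3, Bhlhe41, Tef, Nr1d2 and Cry2), where edgeR called 5, spike-in scaling 2 and the fit without aged replicate 3 called 4. Of all genes tested, 6.41%, 3.58% and 1.14% were called in these comparisons, in the order given. Dbp, an output factor of the clock, differed by 1.95 ± 0.56 on the log2 scale (DESeq2 adjusted p = 0.0142) in middle-aged and -0.83 ± 0.56 (adjusted p = 0.515) in aged livers. Dbp also split with the spike-in sets in aged livers, with 173 and 157 normalised counts in replicates 1 and 2 and 18 and 53 in replicates 3 and 4. The part of the clock in the values of the set was not tested, and no label gives a time of collection.

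Steroid, bile acid and sulfate metabolism is the next group. Cyp7b1 encodes the oxysterol hydroxylase of the alternative bile acid pathway. Cyp7b1 (ENSMUSG00000039519, chr3:18071950-18243338) had 4212, 5168, 4270 and 3085 normalised counts in young, 1967, 1596, 2400 and 1668 in middle-aged and 3330, 3032, 1296 and 1702 in aged livers. The middle-aged livers were all below the young ones, whereas aged replicate 1 exceeded young replicate 4. The log2 fold change of Cyp7b1 was -1.13 ± 0.26 (DESeq2 adjusted p = 0.00103) for middle-aged and -0.84 ± 0.26 (adjusted p = 0.0370) for aged livers against young ones. The call for aged livers was lost when aged replicate 3 or 4 or young replicate 1, 2 or 3 was left out, with log2 fold changes from -1.06 to -0.64 over all 12 omissions.

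Hsd3b5 encodes a steroid reductase of the hydroxysteroid dehydrogenase family that is found mainly in the male liver. Hsd3b5 (ENSMUSG00000038092, chr3:98618634-98630252) had 4214, 4399, 4392 and 4411 normalised counts in young, 2705, 1986, 2678 and 2604 in middle-aged and 3188, 3162, 932 and 1749 in aged livers. The young livers were nearly alike, with a coefficient of variation of 2.15%, against 13.7% in middle-aged and 49.2% in aged livers. Neither comparison with young livers passed the test although neither older group overlapped the young livers, with log2 fold changes of -0.95 ± 0.33 (DESeq2 adjusted p = 0.0860) for aged and -0.80 ± 0.33 (adjusted p = 0.122) for middle-aged livers. Without aged replicate 1, 2 or 3, Hsd3b5 passed the test for aged against young livers, as it did with the spike-in set as a term (DESeq2 adjusted p = 0.0445).

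Sult2a8 encodes a male-predominant hepatic sulfotransferase that acts on bile acids. Sult2a8 (ENSMUSG00000030378, chr7:14410686-14446769) had 12326, 11233, 10853 and 10926 normalised counts in young, 10088, 8956, 8766 and 9611 in middle-aged and 9797, 9966, 6915 and 9363 in aged livers. Both older groups lay below all young livers, but by little, and the log2 fold changes of -0.33 ± 0.11 (aged; DESeq2 adjusted p = 0.0698) and -0.28 ± 0.11 (middle-aged; adjusted p = 0.110) did not pass the test. With the spike-in set as a term Sult2a8 passed it for aged livers (DESeq2 adjusted p = 0.0318). Cyp2d9 encodes a steroid hydroxylase that is a classical male-specific liver protein. Cyp2d9 (ENSMUSG00000068086, chr15:82433437-82456845) had 13023, 12002, 12619 and 14186 normalised counts in young, 11042, 11478, 12720 and 9566 in middle-aged and 12542, 10112, 7774 and 9326 in aged livers. The ranges overlapped with those of young livers at both ages. For Cyp2d9 the log2 fold change was -0.38 ± 0.14 (DESeq2 adjusted p = 0.0891) for aged and -0.21 ± 0.14 (adjusted p = 0.370) for middle-aged livers, with 95% intervals of -0.65 to -0.12 and -0.48 to 0.05. The transcript shares 29.0% of its stretches of 50 bases with 11 other genes, so the count is uncertain to the extent that reads were split.

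Slco1a1 encodes an organic anion transporter of the hepatocyte membrane that takes up bile acids and conjugated steroids. Slco1a1 (ENSMUSG00000041698, chr6:141907282-141946962) had 5520, 4404, 4815 and 4741 normalised counts in young, 3958, 3564, 3805 and 3692 in middle-aged and 3547, 4466, 2238 and 3046 in aged livers. Middle-aged livers were tightly grouped below the young ones, whereas aged replicate 2 exceeded the lowest young liver. For Slco1a1 the log2 fold change was -0.55 ± 0.16 (DESeq2 adjusted p = 0.0287) for aged livers and -0.38 ± 0.16 (adjusted p = 0.148) for middle-aged livers. The call for aged livers was lost without aged replicate 3 or 4 or young replicate 1, 3 or 4, with log2 fold changes from -0.73 to -0.40 over all 12 omissions.

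Selenbp2 encodes a selenium-binding protein known for binding acetaminophen in liver, and it varied most. Selenbp2 (ENSMUSG00000068877, chr3:94693556-94704413) had 19905, 24821, 17702 and 12938 normalised counts in young, 5522, 3660, 7257 and 5348 in middle-aged and 12748, 7331, 520 and 1055 in aged livers. All older livers lay below all young ones, aged replicate 1 only just, and the aged group spanned a 24.5-fold range. The log2 fold change of -1.80 ± 0.79 for aged livers was the most negative of the set, yet it did not pass the test (DESeq2 adjusted p = 0.206), nor did that of -1.79 ± 0.79 for middle-aged livers (adjusted p = 0.154). Selenbp1, a paralogue that shares 52.0% of the Selenbp2 stretches of 50 bases, differed by -0.06 ± 0.12 (adjusted p = 0.888) and 0.21 ± 0.12 (adjusted p = 0.285). With both genes summed, the log2 fold changes were -1.23 ± 0.40 (adjusted p = 0.0517) and -1.10 ± 0.40 (adjusted p = 0.0682), neither of which passed the test.

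**Figure D2:**
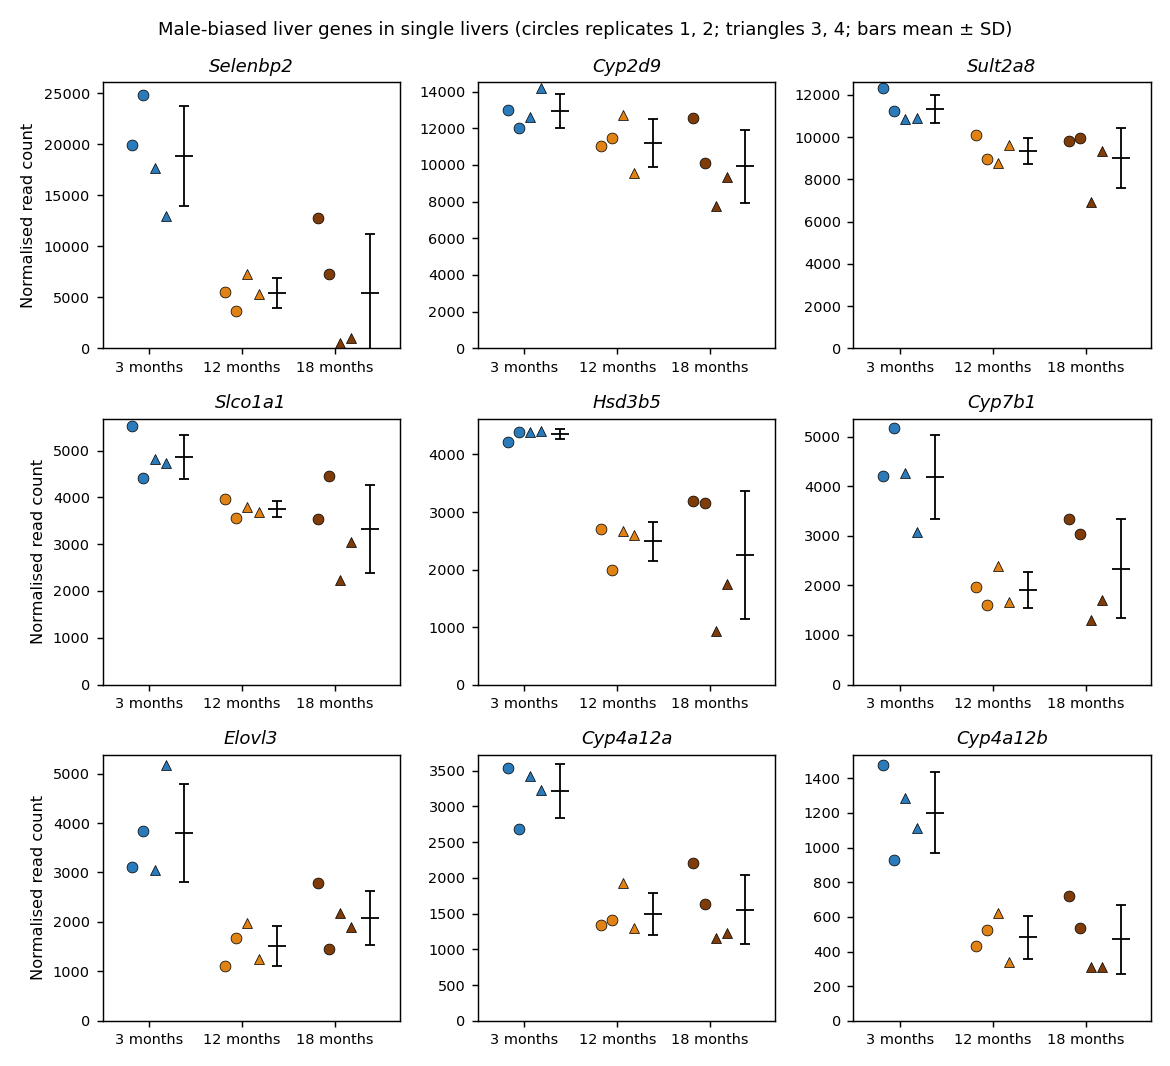
Normalised read counts (vertical axis, from 0) of each gene in every liver at 3, 12 and 18 months; circles are replicates 1 and 2, triangles replicates 3 and 4, and bars give the mean ± SD (n = 4). Selenbp2 and Hsd3b5 in aged livers split into high circles (3188 and 3162 for Hsd3b5) and low triangles (932 and 1749). Values are scaled to the median gene.

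Per kilobase of exon, young livers held 8297 normalised counts of Selenbp2, 4875 of Cyp2d9, 3451 of Sult2a8 and 2811 of Hsd3b5. Cyp7b1 (1932) and Elovl3 (1920) came next and overlapped between livers. Cyp4a12a (1328), Slco1a1 (923) and Cyp4a12b (502) were the lowest, and all other neighbours in this order were separated in every young liver. In middle-aged livers the mean level of Selenbp2 per kilobase was 2399, below Cyp2d9 (4214) and Sult2a8 (2849).

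The livers of one age differed in how low the set was. All middle-aged livers but one had all 9 genes below their lowest young liver, and middle-aged replicate 3 had 8. Aged replicates 1, 2, 3 and 4 had 7, 8, 9 and 9. The number of genes under 50% of the young mean was 0, 3, 6 and 5 in aged replicates 1 to 4 and 5, 6, 1 and 5 in middle-aged replicates 1 to 4. These counts per liver were taken for the 9 genes only, without a share of all genes. How usual they are among other genes was not tested. Aged replicate 3 had the lowest average level, and aged replicate 1 the highest of the older livers.

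**Figure D3:**
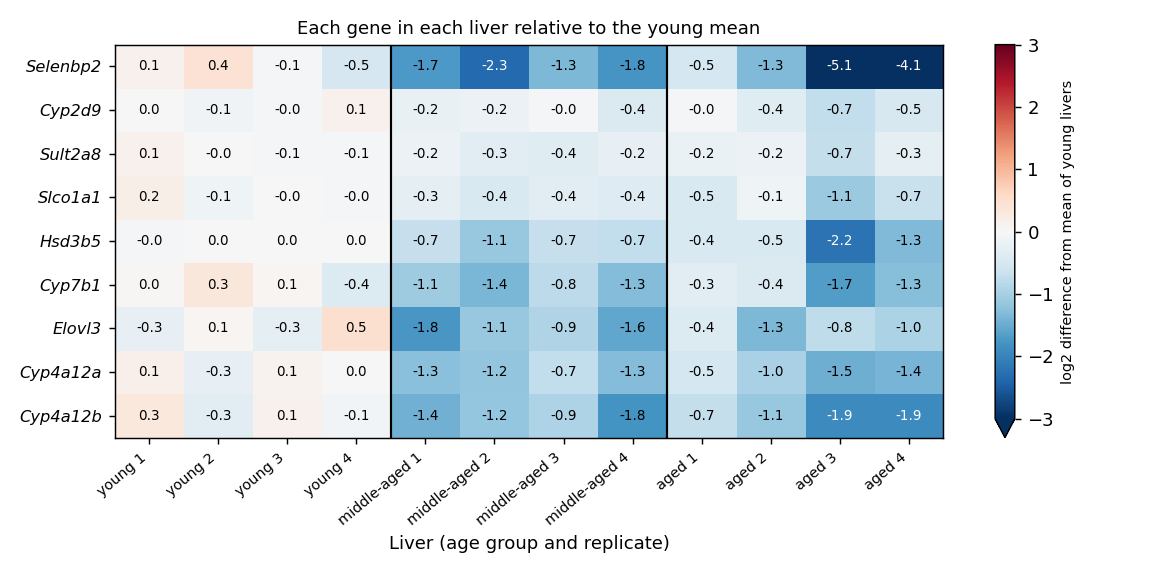
Log2 difference of each gene in each liver from the mean of the young livers (colour and printed value, relative to the median gene); rows are genes and columns livers. Aged replicates 3 and 4 hold the lowest values of the map, -5.1 and -4.1 for Selenbp2, while aged replicate 1 ranges only down to -0.7.

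In aged livers both livers of set B lay below both livers of set A in 8 of the 9 genes, Elovl3 being the exception, where 20.9% of all genes tested had that order. The same order was found in 2 of 9 genes in young livers (16.7% of all genes) and in 0 of 9 in middle-aged livers (21.5%). A DESeq2 fit with an age by set term, added after these values were seen, tested whether the difference between ages was unequal in the 2 sets. For this term, lower or higher in set B refers to the difference between ages and not to the level. For aged against young livers 2 of the 9 genes were called, against 0.732% of all genes, and both were lower in set B. The log2 fold change of Selenbp2 was -1.15 within set A and -4.28 within set B, a difference of -3.13 ± 0.63 (DESeq2 adjusted p = 3.65e-04). That of Hsd3b5 was -0.44 and -1.72, a difference of -1.28 ± 0.32 (adjusted p = 0.0109). For middle-aged against young livers 0 of 9 were called (0.423% of all genes), with 0 also at an unadjusted p under 0.05. No other tool was run for this term. Other features split in the same livers. Among 16 clock genes the term for aged against young livers was called for 2, Dbp and Nr1d1, both lower in set B. Summed stellate cell and fibroblast markers were higher in set B at every age, with 1886 and 1489 normalised counts in set A against 2819 and 3326 in set B in young livers, 1877 and 2231 against 4224 and 3474 in middle-aged livers, and 2213 and 1691 against 3297 and 2596 in aged livers. Of these 8 markers, 3 had that order at every age, and the age by set term was called for 0 of 8 in each comparison, with 0 also at an unadjusted p under 0.05. The part of these features in the values of the set was not tested.

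For aged against middle-aged livers, the term was called for 3 of the 9 genes (0.996% of all genes), and the 2 sets pointed in opposite directions. Selenbp2 was higher in aged than middle-aged livers in set A (1.13) and lower in set B (-2.99), a difference of -4.13 ± 0.63 (DESeq2 adjusted p = 4.65e-08). Hsd3b5 differed by 0.44 in set A and -0.97 in set B (adjusted p = 0.00186 for the term). Cyp7b1 differed by 0.84 and -0.43 (adjusted p = 0.00445 for the term). Each set held 2 livers of each age, the sets share their order with the replicate numbers, and spike-in set and single livers cannot be told apart here.

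Most of the 9 genes varied together from liver to liver. Over the 12 livers, Pearson's r of log2 normalised counts between members was 0.36 to 0.98 in the 36 pairs, with a median of 0.83. After the mean of each age was removed it ranged from -0.37 to 0.95 with a median of 0.69, and it was positive in 32 of 36 pairs. The 4 negative pairs all involved Elovl3, whose other pairs ranged from 0.01 to 0.48, so Elovl3 did not follow the rest within an age. These values describe 12 livers that share size factors and the contrast of ages, and pairs of other genes were not computed. The split of aged livers by spike-in set, in the same order for 8 of the 9 genes, also enters the values within an age. Of 8879 genes whose mean normalised count was 50 or more, those most like the average profile of the set were Ugt2b1 (r = 0.97), C6 (0.95), Mup11 (0.95), Serpina3k (0.95), Qars (0.95), C9 (0.95), Cct2 (0.94), Chid1 (0.94), Mrps22 (0.94) and C8b (0.93). Ugt2b1 is a glucuronosyltransferase, C6, C8b and C9 are components of the terminal complement complex, and Mup11 is a major urinary protein. The genes with the most opposite profile were Lipa (-0.94), Heca (-0.94), Ptprd (-0.93), Zfand5 (-0.92) and Ppp2r5c (-0.92), of which Lipa encodes the lysosomal acid lipase.

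Other male-biased liver genes were examined to place the set among them. Of 22 listed, 10 fell, against 1.71% of all genes called lower, and the rest did not pass the test in aged against young livers, with a median log2 fold change of -0.89. Of 21 tested in middle-aged livers 9 fell, against 2.9% of all genes, and the rest did not pass, with a median of -0.84. For aged livers edgeR gave 5 and limma-voom 14, and the count was 16 without aged replicate 1 and 6 without aged replicate 4 or young replicate 1, 2 or 3. With spike-in scaling 5 of the 10 and 6 of the 9 turned sign, and all stayed below the median gene. The largest called differences were those of the major urinary protein genes Mup9 (-4.03 in aged and -4.69 in middle-aged livers), Mup17 (-3.55 and -4.52) and Mup15 (-3.48 and -4.42), close copies among which reads can be split. Mup11 followed in aged livers (-1.79) and Mup21 in middle-aged ones (-1.24). The age by set term was called for 3 of 21 genes in aged against young livers, all lower in set B. These 3 were C6, Moxd1 and Serpina1e, of which Moxd1 and Serpina1e are named because of this result.

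Female-biased genes, which continuous growth hormone favours, were low in most of these male livers. Of 27 listed, 13 reached a mean of 10 normalised counts. In aged against young livers 5 of 16 tested rose (Cyp4a14, Cyp2b9, Slc22a26, Slc22a27 and Cyp2b10) and 2 fell (Cyp2c69 and Cyp2c40). Of all genes tested, 1.87% were called higher and 1.71% lower. In middle-aged livers 2 of 12 passed the test, again Cyp2c69 and Cyp2c40, which were lower, against 2.9% of all genes called lower. None of these called directions turned with spike-in scaling.

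The calls of a rise in aged livers rested on set B. The count of 5 was 1 (Cyp4a14) without aged replicate 3 and 2 without aged replicate 4, edgeR called 1 of 13 higher (Cyp4a14) and limma-voom 0 of 13, with 3 higher at an unadjusted p under 0.05. Cyp2b9, a testosterone hydroxylase of the female liver, had 13, 1, 0 and 1 normalised counts in young, 14, 1, 2 and 1 in middle-aged and 1, 3, 629 and 398 in aged livers. Cyp4a14, a fatty acid hydroxylase that responds to fasting as well, had 34, 1, 17 and 15 in young, 314, 136, 44 and 43 in middle-aged and 20, 113, 3452 and 1204 in aged livers. Aged replicates 3 and 4, in which Selenbp2 and Hsd3b5 were lowest, were thus the highest of all 12 livers for both genes. The organic anion transporter gene Slc22a27 had 98 and 55 normalised counts there and 28 or fewer in every other liver. In Cyp4a14, Cyp2b10, Slc22a26 and Slc22a27, every middle-aged liver also lay above every young one, and no share of all genes was taken for this order. Slc22a26 rested on few reads, with 4.5 to 11.9 normalised counts in middle-aged and 0 to 3.2 in young livers. Slc22a27 was low as well, at 11.5 to 27.8 and 1.1 to 7.1. For Cyp2b10 the ranges were 17.0 to 40.7 in middle-aged and 7.1 to 10.6 in young livers. None of these genes was called higher in middle-aged livers. The age by set term for aged against young livers was called for Cyp2b9 (11.8 ± 1.8; DESeq2 adjusted p = 1.79e-07) but not for Cyp4a14 (5.32 ± 1.75; adjusted p = 0.161). The size of the Cyp2b9 term is uncertain, as its young livers held only 0 to 13 normalised counts. Cyp17a1, a steroid hydroxylase and lyase named for this result, was the other of 2 female-biased genes called, out of 12 tested, and both were higher in set B.

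**Figure D4:**
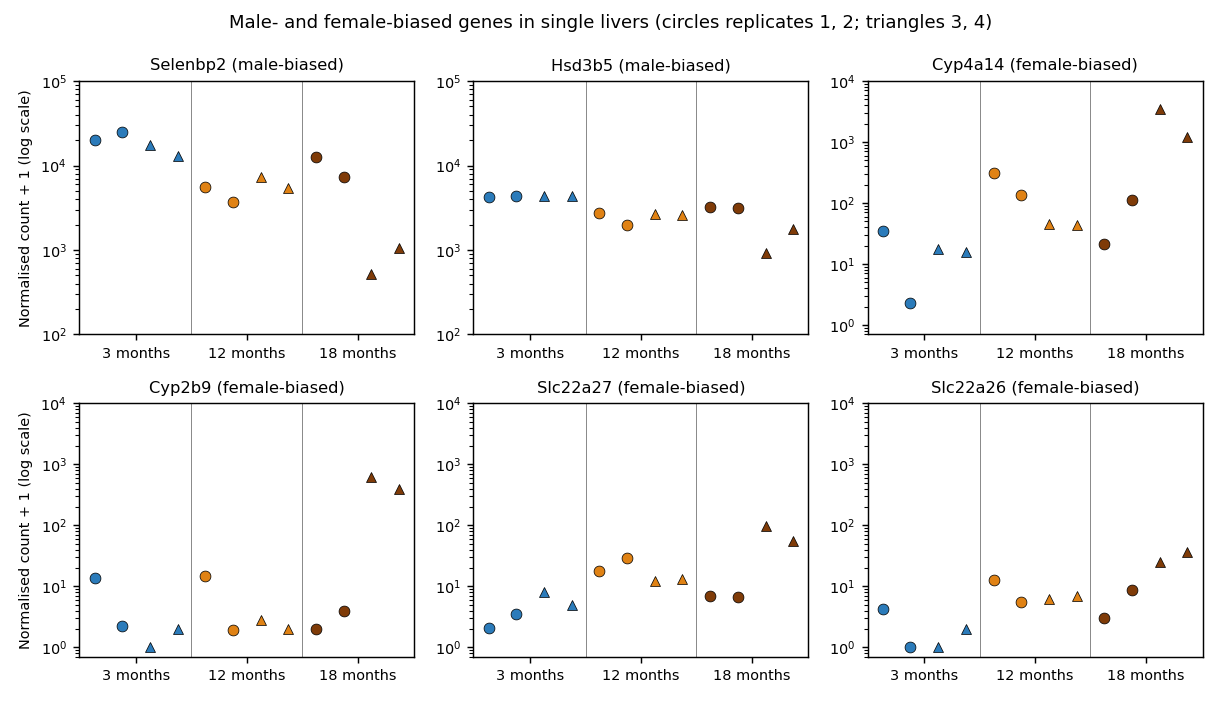
Normalised count + 1 on a log axis in every liver for Selenbp2 and Hsd3b5, of the set, and for the 4 female-biased genes with the largest called rise in aged livers; circles are replicates 1 and 2, triangles replicates 3 and 4. The triangles of the 18-month group lie lowest for the first 2 genes and highest for the other 4, as in Cyp2b9 (629 and 398).

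Genes of growth hormone signalling were examined next. Of 21 tested in aged against young livers 2 rose (Prlr and Stat5a) and 1 fell (Igfbp1), where 3.58% of all genes were called. In middle-aged livers 1 of 20 passed the test, Igfbp1, which fell. None of these directions turned with spike-in scaling. That scaling called 12 of 22 higher in aged and 14 of 22 in middle-aged livers. Over all genes it called 10089 and 12033 higher, 99.9% of its calls in both comparisons. Total count scaling called 4 of the list higher in aged livers, and 648 higher over all genes. The receptor gene Ghr had 4873 to 5369 normalised counts in young, 5515 to 5794 in middle-aged and 4496 to 6435 in aged livers. The log2 fold change of Ghr was 0.12 for aged livers (95% interval -0.07 to 0.31) and 0.13 for middle-aged ones (-0.06 to 0.32), and neither passed the test. The intervals for aged livers were similarly narrow for the kinase gene Jak2 (-0.27 to 0.26) and for Stat5b (0.01 to 0.45, DESeq2 adjusted p = 0.274), the member of the Stat5 pair on which the male pattern depends.

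Of the known targets, Igf1, the main growth hormone-induced endocrine factor of the liver, had a log2 fold change of -0.16 (95% interval -0.37 to 0.04) in aged and -0.26 (-0.47 to -0.06, DESeq2 adjusted p = 0.101) in middle-aged livers. Igfals, its binding partner in the circulation, differed by 0.03 (-0.30 to 0.36) in aged livers. Socs2 and Cish, which respond within a pulse, varied widely among livers of one age. Cish had 415, 292, 17 and 17 normalised counts in young, 162, 14, 253 and 291 in middle-aged and 39, 9, 20 and 42 in aged livers, so young and aged livers overlapped. Its log2 fold change for aged livers was -2.75 ± 1.08 (DESeq2 adjusted p = 0.141). Socs2 had 594, 264, 207 and 155 in young, 184, 54, 96 and 234 in middle-aged and 106, 215, 318 and 404 in aged livers, with no call at either age. The age by set term was called for Cish in middle-aged against young livers and for Socs3 in aged against middle-aged livers. Mean Cish went from 353 in young to 88.1 in middle-aged livers in set A and from 16.6 to 272 in set B. Mean Socs3 went from 56.2 in middle-aged to 263 in aged livers in set A and from 163 to 30.4 in set B.

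The 3 called genes stood as follows. Prlr, the prolactin receptor gene, which is higher in female liver, had 380, 444, 463 and 633 normalised counts in young, 778, 861, 533 and 733 in middle-aged and 636, 1167, 1444 and 1133 in aged livers. The highest young liver lay just below the lowest aged one. The log2 fold change of Prlr was 1.19 ± 0.23 (DESeq2 adjusted p = 6.77e-05) in aged livers and 0.60 ± 0.23 (adjusted p = 0.0943) in middle-aged ones. Stat5a differed by 0.59 ± 0.17 on the log2 scale (adjusted p = 0.0261) in aged livers. That call was lost with edgeR, with the replicate block, with only the 2 groups, within each spike-in set, without both libraries with most genes detected, and without aged replicate 2, 3 or 4 or young replicate 1 or 2. Igfbp1, an insulin-repressed binding protein of Igf1, fell by 2.14 on the log2 scale (adjusted p = 0.0147) in aged and by 3.36 (adjusted p = 5.58e-06) in middle-aged livers. Its call for aged livers was lost with only the 2 groups, with spike-in scaling, within each spike-in set, without both libraries with most genes detected, and without aged replicate 2 or young replicate 2 or 3, and that for middle-aged livers held in every alternative. The count of 3 was 1 without aged replicate 2 or young replicate 2, and Prlr was called for aged livers in every alternative.

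**Figure D5:**
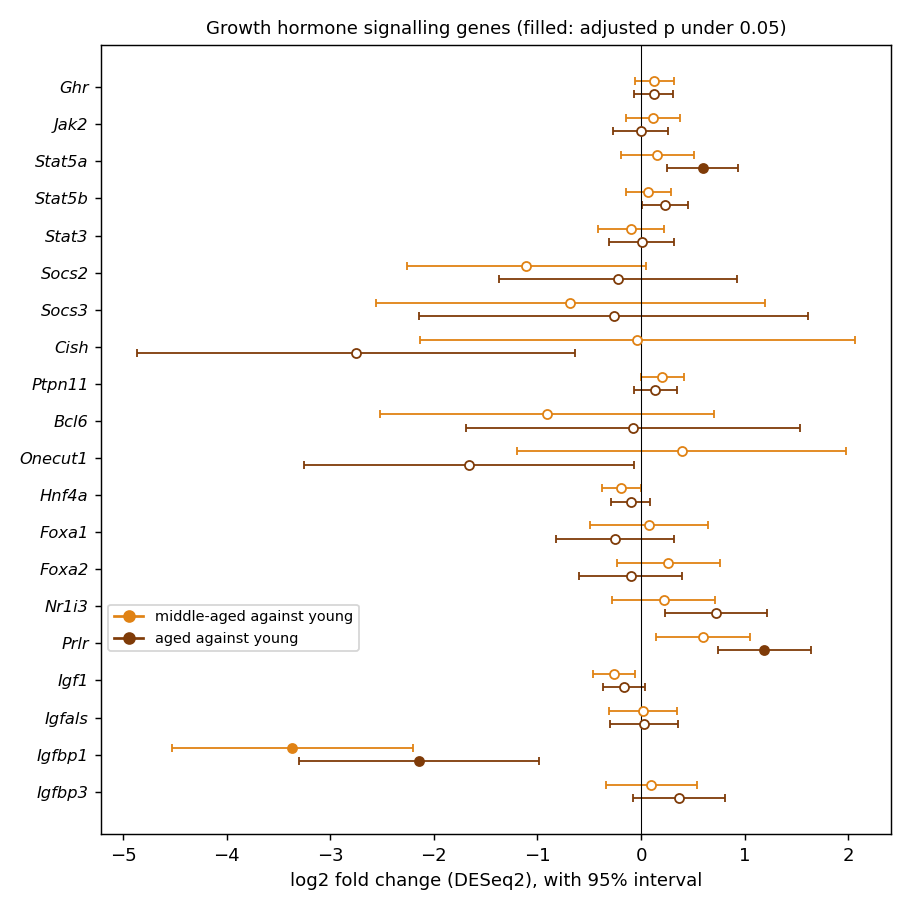
Log2 fold change against young livers (horizontal axis, DESeq2, with 95% intervals) of the 20 growth hormone signalling genes whose mean normalised count was 10 or more; filled points passed an adjusted p of 0.05. Prlr lies at 1.19 and 0.60 and Igfbp1 at -2.14 and -3.36, while Ghr, Jak2 and Igfals lie near 0.

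Other features that moved in the same livers were measured beside the set. Of 15 acute phase genes, which hepatocytes raise or lower in inflammation, 3 fell in aged (Il1r1, Orm2 and Orm1) and 6 fell in middle-aged livers (Saa1, Saa2, Il1r1, Orm1, Apcs and Fgg), of which 2 and 4 turned sign with spike-in scaling. Of all genes, 1.71% and 2.9% were called lower. Young replicate 2 had 4033 normalised counts of Saa1 and 2014 of Saa2, against at most 729 and 323 in the other young livers. Il1r1 had 521, 782, 191 and 155 in young livers. Its age by set term was called in both comparisons against young livers, where the fall with age was smaller in set B. Means of Il1r1 were 652 (set A) and 173 (set B) in young, 114 and 144 in middle-aged, and 91.4 and 106 in aged livers. The summed level of the list was 156546 to 227128 normalised counts in young, 133502 to 152627 in middle-aged and 162165 to 204788 in aged livers. Among 8 Kupffer cell and macrophage markers, Marco was higher in aged livers (log2 fold change 2.46 ± 0.69, DESeq2 adjusted p = 0.0178), and the summed level was 2756 to 4717 in young, 2407 to 3116 in middle-aged and 2896 to 4655 in aged livers. Marco had 791, 104, 96 and 261 normalised counts in aged replicates 1 to 4 and 37 to 79 in young livers. No other marker of this list was called in aged against young livers, and 6 of the 8 log2 fold changes were negative (median -0.08). Hepatocyte markers summed to 800414 to 868832 in young, 821976 to 919409 in middle-aged and 840589 to 1064530 in aged livers. Aged replicate 4, where the set was low, had the highest sum, of which Alb alone held 774027. Of the 7 markers, 5 had negative log2 fold changes in aged against young livers (median -0.09), and 0 were called. Mitochondrial transcripts made up 7.40% to 19.2% of counts in young, 6.45% to 9.03% in middle-aged and 5.48% to 7.53% in aged livers, with the highest share in young replicate 2. The part of these features in the values of the set was not tested.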

How the data were processed

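Total RNA of 12 livers was sequenced and the authors deposited 1 table of whole-number read counts per gene, not normalised, with 53465 Ensembl identifiers and 92 synthetic spike-ins. The submitters' processing notes name STAR 2.5.2b, SAMtools 1.9, featureCounts, R 3.6.3, edgeR 3.28.1 and DESeq2 1.26.0 and the builds mm10 and GRCm38, without roles. The library kit keeps strand, but the strand setting of the counting is not given in the sources used here. All 12 columns matched sample titles, which gave the age group and the replicate number. Each label states that a sample is 1 animal.

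Spike-ins were left out of library sizes. Of the identifiers, 53360 matched GENCODE M21 (GRCm38), which gave symbols and positions. Following the study's choice of tool, DESeq2 1.42.0 (R 4.3.3) was fitted to the 28449 genes with a count in any library, all 12 livers in 1 model of age, with Wald tests for the 3 pairs of ages, a likelihood ratio test across ages, default independent filtering and Cook's rule, Benjamini-Hochberg adjustment over all genes and a threshold of 0.05. Alternatives were edgeR 4.0.16 (quasi-likelihood), limma 3.58.1 (voom with quality weights), TMM, total count and spike-in scaling, a filter of 10 counts in 4 samples, no Cook's rule, only the 2 groups compared, a replicate block, a covariate for spike-in set, separate fits of each set, each library left out, and Cyp4a12a and Cyp4a12b summed. An age by set term, Selenbp2 and Selenbp1 summed, and a fit without young replicate 3 and middle-aged replicate 1 were added after seeing the data. edgeR and limma were first run without their expression filter, which gave inflated numbers of calls, and the filter was added after the tests on simulated data and the numbers of calls had been seen. The fits were tested on simulated data.

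The members, the gene lists and the tests were chosen with earlier results of these data known. The genes named were the 9 members, growth hormone signalling genes whose mean normalised count was 10 or more, the called male- and female-biased genes with the largest fold changes (up to 4 in each direction), up to 4 called genes of other lists, and the 10 most and 5 least similar genes by Pearson's r over the 12 livers among genes with a mean of at least 50. Cyp2b10, clock and acute phase genes beyond 4, and Moxd1, Serpina1e, Cyp17a1, Cish, Socs3, Dbp, Nr1d1 and Il1r1 for their age by set terms were named after their values were seen, and other genes with such a call are not named for it. Stellate cell, endothelial, cholangiocyte, B, T and NK cell and neutrophil marker lists were also read. A signalling gene is not reported here. Intervals are 95% Wald intervals from DESeq2. Sequence sharing was counted from GENCODE transcripts as identical stretches of 50 bases.

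Replicate numbers were checked for pairing by correlating the deviations of same-numbered livers from their age means. The 12 correlations ran from -0.30 to 0.16 and 2 exceeded 0.1, so the numbers were not used to pair livers.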

Additional observations from a re-analysis of the deposited data

Results flagged for a closer look

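Of 87 groups of 4 livers tested over 29 genes (the members and the signalling genes whose mean normalised count was 10 or more), 5 held a liver whose gap to the nearest other liver was unusually wide for the range of the group, and chance gives about 1 in 20, or 4.35 of 87. Hsd3b5 had 4214 normalised counts in young replicate 1, the lowest of a tight group, and 1986 in middle-aged replicate 2. Igf1 had 6271 in young replicate 2 and 5405 in aged replicate 2, the highest of each group. Socs3, a feedback inhibitor also raised by inflammatory cytokines, had 447 in aged replicate 1, against at most 79.0 in the other aged livers.

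The difference between ages was unequal in the 2 spike-in sets by the age by set term of DESeq2 for 3 of the 9 genes. The value for set B minus that for set A was -3.13 (Selenbp2) and -1.28 (Hsd3b5) on the log2 scale for aged against young livers. For aged against middle-aged livers it was -4.13 (Selenbp2), -1.42 (Hsd3b5) and -1.28 (Cyp7b1).

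Among the other lists, set B minus set A for aged against young livers was 11.8 (Cyp2b9), 1.81 (Cyp17a1), -0.996 (C6), -5.14 (Moxd1), -3.04 (Serpina1e), -1.42 (Nr1d1) and -1.78 (Dbp). It was 6.04 for Cish in middle-aged against young livers and -4.65 for Socs3 in aged against middle-aged livers, 2 genes with wide spread among livers of one age. The size of the Cyp2b9 value is uncertain, as young livers held only 0 to 13 normalised counts of that gene.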

How the results depend on the processing

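Of the 9 genes, DESeq2 as reported called 5 (aged against young), 4 (middle-aged against young), 0 (aged against middle-aged) and 5 (across ages). For aged against young livers the count was 2 with edgeR, 8 with limma-voom, 3 with only the 2 groups, 0 with spike-in scaling, 2 within set A, 8 within set B, 3 without both libraries with most genes detected, and 3 to 9 with single libraries left out. For middle-aged against young livers it was 8 with only the 2 groups and 4 to 8 with single libraries left out, and with spike-in scaling 3 genes were called higher (Cyp2d9, Slco1a1 and Sult2a8). For aged against middle-aged livers 2 were higher within set A (Selenbp2 and Cyp7b1) and 2 lower within set B (Selenbp2 and Slco1a1). Across ages it was 3 with edgeR, 2 with spike-in scaling, 8 within set B and 4 to 9 with single libraries left out. With a replicate block, which the pairing check did not call for, the counts were 6 (Sult2a8 added, adjusted p = 0.0373), 4, 0 and 5, and with the spike-in set as a term 7, 4, 0 and 7. The causes were not tested.

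Over all genes, where DESeq2 as reported called 484, 727, 117 and 865, edgeR called 172, 280, 13 and 234, and spike-in scaling 10098, 12043, 4 and 11139. Total count scaling called 787 for aged against young livers, where the share of calls that were higher was 82.3% (spike-in scaling 99.9%, as reported 52.3%), against 84.1% (99.9%, 54.7%) for middle-aged against young ones. For aged against middle-aged livers the 4 calls with spike-in scaling were all lower. Set A called 137, 251, 34 and 270, set B 305 for middle-aged against young and 307 for aged against middle-aged, and the fit without both libraries with most genes detected 302, 271, 60 and 464. The replicate block called 385 for middle-aged against young, 426 for aged against middle-aged and 451 across ages. Limma-voom called 58 for aged against middle-aged livers. The fit of only 2 groups called 290 (aged against young) and 1166 (middle-aged against young). Without single libraries the ranges were 237 to 1291, 345 to 1095, 45 to 198 and 496 to 1637, the highest of each without aged replicate 1.

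With spike-in scaling the log2 fold changes that turned sign, for aged and middle-aged against young livers, were Cyp2d9 (0.80 and 1.35), Cyp4a12a (0.12 and 0.44), Cyp7b1 (0.47 and 0.53), Elovl3 (0.31 and 0.25), Hsd3b5 (0.29 and 0.75), Slco1a1 (0.67 and 1.13), Sult2a8 (0.88 and 1.24) and, for middle-aged livers, Cyp4a12b (0.23). For aged against middle-aged livers, where no gene was called, signs turned with spike-in scaling (Cyp4a12a -0.32, Cyp7b1 -0.0568), with limma-voom (Cyp4a12a -0.11), within set A (Cyp2d9 0.0102, Cyp4a12b 0.39, Hsd3b5 0.44, Selenbp2 1.13, Slco1a1 0.0940, Sult2a8 0.0555), within set B (Cyp4a12a -0.43, Cyp7b1 -0.43) and without both libraries with most genes detected (Selenbp2 0.00014). With single libraries left out they ranged from -0.16 to 0.20 (Cyp4a12a), -0.32 to 0.12 (Cyp4a12b), -0.36 to 0.11 (Hsd3b5), -0.88 to 0.37 (Selenbp2) and -0.10 to 0.0533 (Sult2a8). Each other alternative kept the sign of every member. All members had at least 340 counts in each library, and the part of counting error in the small spread of Hsd3b5 in young livers was not tested.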

Other observations

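Markers of other liver cells were read in the same 12 livers, as summed normalised counts with no cause assigned. Of 8 stellate cell and fibroblast markers 0 were called by DESeq2, edgeR or limma-voom in any of the 3 comparisons (at an unadjusted p under 0.05 DESeq2 gave 1 for aged against young livers, 0 for middle-aged against young and 1 for aged against middle-aged), and their sum was 1489 to 3326 in young, 1877 to 4224 in middle-aged and 1691 to 3297 in aged livers, with both set B livers above both set A livers at each age. Of 6 endothelial markers 0 were called by these tools (0, 2 and 1 at an unadjusted p under 0.05 with DESeq2), with sums of 1342 to 2166, 1381 to 1609 and 1477 to 1639. Of 5 cholangiocyte markers, Sox9, a transcription factor of bile duct cells, was higher in aged than in young livers (log2 fold change 0.86 ± 0.24, DESeq2 adjusted p = 0.0169) and than in middle-aged ones (0.95 ± 0.24, adjusted p = 0.0117), calls that limma-voom made and edgeR did not. Of 5 B and plasma cell markers, the immunoglobulin heavy chain gene Ighm was higher in middle-aged than in young livers (1.71 ± 0.56, DESeq2 adjusted p = 0.0398), a call that neither edgeR nor limma-voom made, and the summed level was 239 to 755 in young, 411 to 2321 in middle-aged and 448 to 1342 in aged livers. T and NK cell markers were low, with none of the 5 at a mean of 10 and sums of 20.2 to 48.6, 20.6 to 33.1 and 14.4 to 19.7. The 4 neutrophil markers summed to 31.2 to 281 in young, 6.95 to 30.1 in middle-aged and 12.5 to 89.3 in aged livers, and the highest value was that of young replicate 2.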
